A study of Mus musculus with 6 samples.

Results

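The genes described here encode agrin, neuregulin-1 and the receptors and adaptors through which they act at the neuromuscular junction. They are the 9 genes Agrn, Lrp4, Musk, Dok7, Rapsn, Nrg1, Erbb2, Erbb3 and Erbb4, taken by symbol from the 34433 gene symbols of a gene-level expression table. Motor neurons (MNs) were derived from 2 mouse embryonic stem cell (mESC) lines on the FVB/N background, both carrying an eGFP reporter under the Hb9 promoter. The Hb9 control line is labelled wildtype and, according to the methods, is SMN2+/+;mSmn+/+, while the A2 SMA line is SMN2+/+;mSmn-/-, so that both lines carry the human SMN2 transgene and only A2 lacks mouse Smn. After embryoid body formation, cultures of both lines received 1 µM retinoic acid and 1 µM Smoothened agonist for 5 days. Living eGFP-positive cells were then sorted for RNA sequencing, with 3 samples for each line. The mESCs had been grown on fibroblast feeders. Each genotype is represented by a single cell line, so genotype and line cannot be told apart.

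Agrin is a heparan sulfate proteoglycan that motor axons release at the synapse. It binds LRP4 on the muscle surface, which activates the receptor kinase MuSK. Together with the adaptor DOK7, MuSK then drives clustering of acetylcholine receptors by rapsyn. Neuregulin-1 is a growth factor of axons that signals through ErbB receptor tyrosine kinases and is best known for sustaining Schwann cells and for muscle spindle formation. MNs therefore supply the ligands, whereas MuSK, DOK7 and rapsyn are chiefly muscle proteins, and LRP4 is found on both sides of the synapse.

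Levels are given as FPKM, fragment numbers divided by transcript length and by the size of the library, so that genes can be compared. The table holds 1 FPKM value per gene and genotype, which combines the 3 samples, and no value of a single sample. From these values no SD, replicate check or test can be computed, the test columns that come with the table were not used, and the depth behind each value is not part of it. A difference was called where the levels differed by at least 2-fold and the gene had at least 1 FPKM in either genotype. Over the 15548 genes that met this filter with a value above 0 in both genotypes, 22.7% were called lower and 6.93% higher in A2 SMA MNs, and the median log2 ratio of A2 SMA over Hb9 control was -0.30. With ratios centred on that median gene, the shares were 16.6% and 10.6%. Percentages of genes with a lower level, or with a lower or higher ratio, refer to these 15548 genes throughout. They were counted as entries with a symbol. A symbol with more than 1 entry counts by each, and an entry shared by several symbols counts once. For the members and lists, 1 entry per symbol was taken. Smn1, the gene deleted in A2, was at 137 FPKM in the control MNs against 5.26 FPKM in the SMA MNs. Mnx1, which encodes Hb9, was at 41.2 and 44.2 FPKM. Other MN markers were lower in the A2 cells, to unlike degrees. Isl1 stood at 108 against 5.95 FPKM, Lhx3 at 27.6 against 0.348 FPKM and Chat at 15.5 against 0.344 FPKM. Prph differed least of these markers, at 26.0 against 11.3 FPKM (log2 ratio -1.20, and -0.90 relative to the median gene).

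The promoters of the most abundant member, of the least abundant one and of the member with the largest log2 difference without a pseudocount are shown for orientation, as the 250 bases before the RefSeq start in the mouse build GRCm38.p6, 5′ to 3′. The Agrn promoter is at chr4:156197489-156197738 (minus strand), the Musk promoter at chr4:58285712-58285961 (plus strand) and the Erbb4 promoter at chr1:69108060-69108309 (minus strand). Capitals mark matches on either strand to the GC box (CCGCCC), the N-box (CCGGAA), an element known from synaptic genes of muscle, and an E-box (CAGCTG) of the kind that myogenic factors bind.
Agrn: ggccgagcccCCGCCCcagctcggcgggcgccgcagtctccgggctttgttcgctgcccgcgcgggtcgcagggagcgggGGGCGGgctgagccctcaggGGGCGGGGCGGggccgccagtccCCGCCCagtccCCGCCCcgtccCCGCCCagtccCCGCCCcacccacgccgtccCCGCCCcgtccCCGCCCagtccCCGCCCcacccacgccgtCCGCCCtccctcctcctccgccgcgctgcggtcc
Musk: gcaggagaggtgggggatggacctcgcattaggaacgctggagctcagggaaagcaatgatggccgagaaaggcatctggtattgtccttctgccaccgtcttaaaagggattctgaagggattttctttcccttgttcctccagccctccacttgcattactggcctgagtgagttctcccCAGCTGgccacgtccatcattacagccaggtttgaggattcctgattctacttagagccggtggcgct
Erbb4: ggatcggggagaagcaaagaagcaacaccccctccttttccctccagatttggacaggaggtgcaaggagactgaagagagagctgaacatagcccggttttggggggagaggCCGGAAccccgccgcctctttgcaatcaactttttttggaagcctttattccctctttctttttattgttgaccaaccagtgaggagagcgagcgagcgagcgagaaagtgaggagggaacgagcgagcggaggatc
The Agrn window held 12 GC boxes, some of them overlapping, and a GC content of 83.6%, against a median of 52.4% over 32851 promoter windows. The Musk window held no GC box and 1 E-box, and the Erbb4 window held 1 N-box and neither of the other motifs. Over all windows, 32.7% held a GC box, 12.0% an N-box and 13.0% an E-box. The 250 bases before the start of Erbb2, at chr11:98412234-98412483, held none of these motifs. A second Agrn start had 2 GC boxes, and the 2 starts of Dok7 had 1 and 4. Windows were at hand for 5 of the 9 members, and a match describes the letters only.

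Agrn was by far the most abundant of the 9 genes in both genotypes. The gene occupies bases 155539399 to 155571536 of chromosome 4 (build NCBI m37, as for all loci of the table). Control MNs had 198 FPKM, above 97.4% of the 15548 genes, and SMA MNs 110 FPKM, above 93.7% of them. The SMA level was thus 1.80-fold lower (log2 ratio -0.85, and -0.55 relative to the median gene). This is under the 2-fold limit, and 26.6% of these genes had a lower ratio than Agrn. The value covers all Agrn transcripts, so the neural splice forms with the strongest clustering activity could not be told from the others.

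Nrg1, on chromosome 8 from 32924544 to 33126231, showed a larger difference. It was at 18.8 FPKM in the Hb9 MNs and at 3.77 FPKM in the A2 MNs, a 4.97-fold lower level (log2 ratio -2.31). Only 7.06% of genes had a lower ratio. The entry spans 202 kb, whereas the gene spans 1069 kb in a later annotation (GENCODE M21, GRCm38). In that annotation 2 of 18 Nrg1 transcripts begin 874 kb upstream of the rest, and whether their first exons were counted is unknown. The entry also does not separate the secreted from the membrane-bound forms of neuregulin-1.

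None of the other neuregulin genes above the filter was lower. Nrg2 was at 2.01 FPKM in the control and 3.93 FPKM in the SMA MNs (log2 ratio 0.96), and Nrg4 at 2.37 against 4.75 FPKM (log2 ratio 1.01, just past the limit). Nrg3 stayed under 1 FPKM in each genotype, at 0.208 and 0.0361 FPKM. Nrg1 therefore made up 80.4% of the summed neuregulin FPKM in the Hb9 MNs and 30.2% in the A2 MNs, where Nrg4 held 38.0% and Nrg2 31.4%. The sum itself went from 23.4 to 12.5 FPKM.

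**Figure D1:**
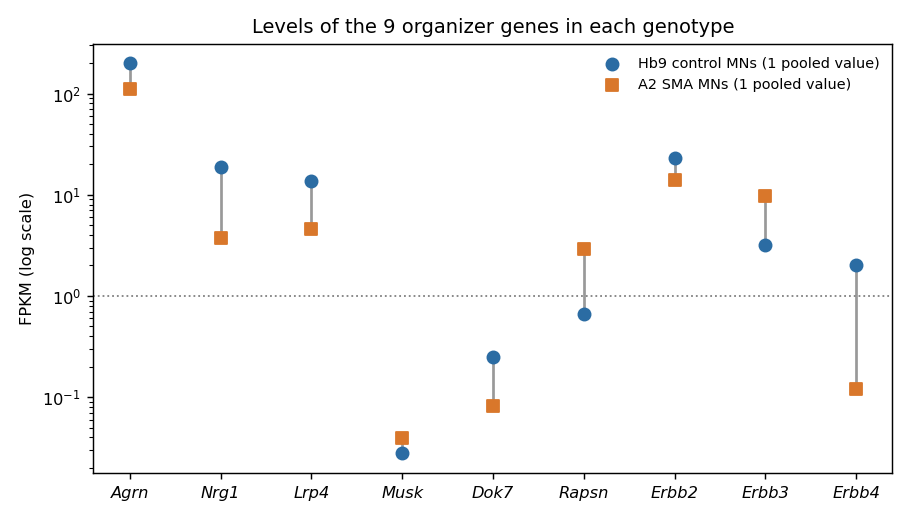
FPKM (log axis) of the 9 genes, with a circle for the pooled value of Hb9 control MNs, a square for that of A2 SMA MNs and a dotted line at 1 FPKM. Agrn stands at 198 and 110 FPKM, Musk and Dok7 lie under 1 FPKM in both genotypes, and Rapsn and Erbb3 have the square above the circle.

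Of the members that act downstream of agrin, Lrp4, Musk, Dok7 and Rapsn, Lrp4 was the most abundant. Lrp4 (chromosome 2 from 91297668 to 91354152), the agrin receptor, was at 13.6 FPKM in controls and 4.59 FPKM in SMA MNs, 2.97-fold lower (log2 ratio -1.57). Agrn exceeded it 14.5-fold in the control and 24.0-fold in the SMA MNs.

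Musk, the receptor kinase, was at 0.0277 FPKM in the Hb9 MNs and 0.0394 FPKM in the A2 MNs. Dok7, its activating adaptor, was at 0.247 and 0.0821 FPKM. Both genes were under the filter in both genotypes and no difference was called for either. The table gives them the status NOTEST, as it does 19615 entries in all. Musk spans 58298834 to 58390290 on chromosome 4 and Dok7 35399462 to 35430488 on chromosome 5.

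Rapsn, which encodes the receptor-clustering protein rapsyn, was higher in the SMA MNs. It was at 0.663 FPKM in the Hb9 MNs and 2.88 FPKM in the A2 MNs, 4.34-fold higher (log2 ratio 2.12), and 1.60% of genes had a higher ratio. With 1 FPKM added to both values the log2 ratio was 1.22. It passed the filter only through its level in A2, so a gene of this level could be called in that direction alone. The Rapsn locus, chromosome 2 from 90875777 to 90894090, spans 18.3 kb, while the gene spans 10.1 kb in GENCODE M21. The same locus holds Gm13778, at 1.93 and 0.532 FPKM, and it ends 75 bp from the locus of Psmc3, a proteasome gene at 247 and 276 FPKM. The Psmc3 entry has the status FAIL, which marks a failed test. The part of these neighbours in the Rapsn value was not tested.

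Rapsn and Musk were set against markers of skeletal muscle. The myogenic regulators Myod1 (0.0666 and 0.0929 FPKM), Myog (0.328 and 0.211 FPKM), Myf5 and Myf6 were all under 1 FPKM in both genotypes, as were 8 of 12 muscle markers. The list summed to 40.5 FPKM in the control and 46.7 FPKM in the SMA MNs, of which Des alone gave 19.4 and 26.3 FPKM. Of the 4 muscle markers above the filter, Actc1 was called lower (5.59 and 1.89 FPKM) and none was called higher, against 22.7% and 6.93% of all genes above the filter. Of the muscle acetylcholine receptor subunits, Chrnb1 was at 7.10 and 8.65 FPKM. The others, Chrna1, Chrnd, Chrne and Chrng, ranged from 0.0351 to 0.868 FPKM, so no full set of subunits was present at 1 FPKM or more.

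The ErbB receptors differed among themselves in direction. Erbb2, the receptor without a ligand of its own, occupies bases 98273784 to 98300360 of chromosome 11. It was at 23.1 FPKM in the control and 14.1 FPKM in the SMA MNs. The 1.64-fold lower level (log2 ratio -0.72, and -0.42 relative to the median gene) was under the limit, and 30.8% of genes had a lower ratio. Its locus also holds 1810046J19Rik, at 76.5 and 56.7 FPKM.

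Erbb4, a neuregulin receptor with an active kinase that is found in neurons, had the lowest log2 ratio of the 9 genes. It was at 2.04 FPKM in the Hb9 MNs and 0.121 FPKM in the A2 MNs, 16.8-fold lower (log2 ratio -4.07), and 1.67% of genes had a lower ratio. It spans 68078760 to 69154633 on chromosome 1. With 1 FPKM added to both values its log2 ratio was -1.44 and that of Nrg1, at -2.05, was lower, so the rank of Erbb4 rests on its low A2 level. Since Erbb4 passed the filter only through the control level, it could be called in the lower direction alone.

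Erbb3, a neuregulin receptor with an impaired kinase that pairs with ErbB2 and is known from neural crest and Schwann cells, was higher in the SMA MNs. It was at 3.18 FPKM in controls and 9.78 FPKM in the A2 MNs, 3.08-fold higher (log2 ratio 1.62), with 3.13% of genes at a higher ratio. The locus, chromosome 10 from 128004579 to 128026708, has 2 entries. The second was at 1.59 and 3.55 FPKM (log2 ratio 1.16), past the limit in the same direction. It stands in the section of the table where 96.9% of genes lie on the plus strand by GENCODE M21, although Erbb3 lies on the minus strand, and how reads were divided between the entries is unknown. With the entries summed the log2 ratio was 1.48.

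Within the receptor family, which also includes Egfr (5.48 and 2.04 FPKM, log2 ratio -1.43), Erbb3 took a larger share in the SMA MNs and the other members smaller ones. Erbb2 made up 68.4% of the summed FPKM in the Hb9 MNs and 54.1% in the A2 MNs. The share of Erbb3 was 9.39% and 37.6%, that of Egfr 16.2% and 7.84%, and that of Erbb4 6.03% and 0.467%. The level of Erbb2 over that of Erbb3 was 7.28 in the control and 1.44 in the SMA MNs. As these are bulk samples of sorted cells, fewer cells with a transcript and less of it per cell cannot be told apart.

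**Figure D2:**
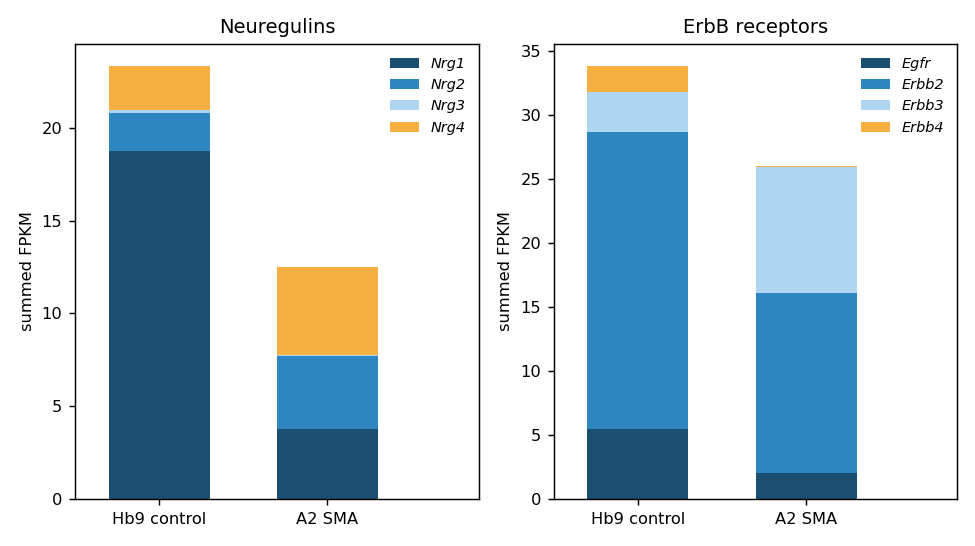
Stacked bars of summed FPKM for the neuregulin genes (left) and the ErbB receptor genes (right) in each genotype, from 1 pooled value per gene and without error bars. Nrg1 fills 80.4% of the control neuregulin bar and 30.2% of the SMA bar, and Erbb3 fills 9.39% and 37.6% of the receptor bars.

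Markers of other cell types differed in direction, and their calls can be read against the 22.7% lower and 6.93% higher of all genes above the filter. Of 9 neural crest and Schwann cell markers, 6 passed the filter, of which 4 were called lower in the SMA MNs and none higher, and the sum of the 9 went from 131 to 38.5 FPKM. Sox10, which defines this lineage, was at 6.48 and 0.525 FPKM. Of 7 epithelial markers, 4 were called higher, and their sum went from 191 to 365 FPKM, with Cdh1 at 39.7 and 99.3 FPKM. All 7 markers of embryonic stem cells were called higher in the SMA MNs, with a sum of 270 against 1784 FPKM. Of 7 matched MN markers 6 passed the filter and 5 were called lower, with a sum of 226 against 63.4 FPKM. Of 7 markers of neural progenitors and floor plate 6 were called lower, from 863 to 65.8 FPKM in sum. Fabp7 alone gave 553 and 5.52 FPKM of this sum. Of 7 fibroblast markers 5 were called lower, from 67.8 to 33.4 FPKM in sum. Sox10, Lhx3, Chat, Olig2, Hes5, Postn and Lum passed the filter only through the control level. They could be called lower alone, so the counts of their lists are a description. Centred on the median gene, where the shares of all genes were 16.6% lower and 10.6% higher, 3 neural crest and Schwann cell, 4 MN and 2 fibroblast markers were called lower, and the counts of the other lists were the same. No marker was listed at 0. These levels moved with the same comparison as the 9 genes, and their part in the differences was not tested.

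Over the 9 genes, 3 were called lower (Lrp4, Nrg1 and Erbb4) and 2 higher (Rapsn and Erbb3). Agrn and Erbb2 were lower by less than 2-fold, and Musk and Dok7 were under the filter. The background shares were 22.7% lower and 6.93% higher, and Rapsn and Erbb4 passed the filter through 1 genotype alone, so these counts are a description. The median log2 ratio was -0.85 over the 9 genes and also over the 7 that passed the filter, against -0.30 over the 15548 genes. In the control MNs the order of levels was Agrn, Erbb2, Nrg1, Lrp4, Erbb3, Erbb4, Rapsn, Dok7 and Musk. In the SMA MNs it was Agrn, Erbb2, Erbb3, Lrp4, Nrg1, Rapsn, Erbb4, Dok7 and Musk. Which neighbours in these orders differ beyond replicate spread cannot be said from pooled values.

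**Figure D3:**
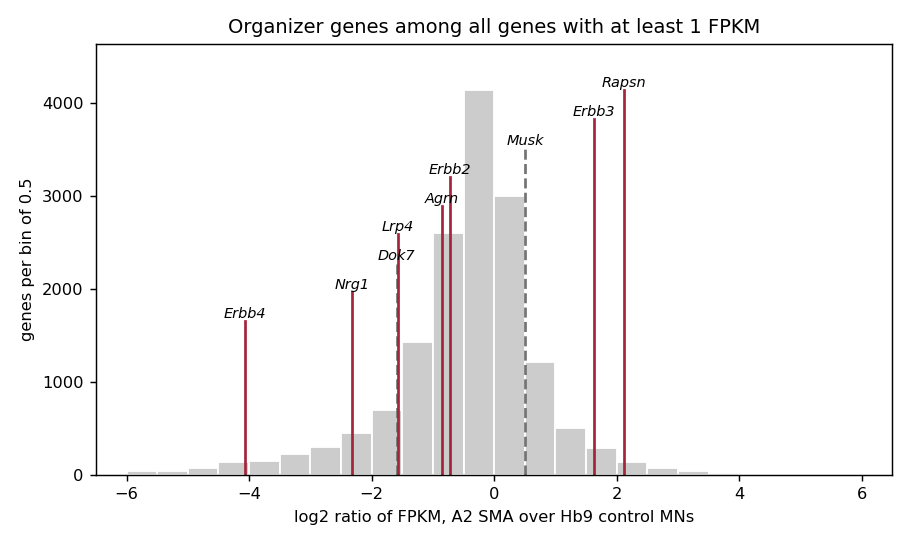
Histogram of log2 ratios of FPKM (A2 SMA over Hb9 control MNs) over 15548 genes in bins of 0.5, with lines for the 9 genes whose heights only separate the names. The end bins also hold genes beyond them, and dashed lines mark Musk and Dok7, which were under 1 FPKM in both genotypes. Agrn at -0.85 and Erbb2 at -0.72 lie within the main body, while Erbb4 at -4.07 and Rapsn at 2.12 lie in the tails.

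A wider list of 35 genes of the agrin and MuSK pathway had 29 genes above the filter. Of these, 5 were called lower and 2 higher in the SMA MNs, against shares of 22.7% and 6.93% over the 15548 genes. Their median log2 ratio of -0.28 compares with -0.30 for all genes above the filter. Cttn, which encodes the actin-binding protein cortactin, was at 125 and 109 FPKM in an entry shared with Ppfia1. The adaptor Crk, which binds phosphorylated DOK7, was at 122 and 73.7 FPKM. Dag1, chosen after its values were seen, encodes dystroglycan, another agrin receptor, and was at 83.8 and 101 FPKM (status FAIL, which marks a failed test). The kinases Abl1 and Fyn were at 120 against 80.6 FPKM and at 106 against 39.4 FPKM. Fyn (log2 ratio -1.43) was called lower, as was Dvl1 (62.2 and 23.0 FPKM), a Dishevelled protein that binds MuSK. Prss12, which encodes neurotrypsin, the protease that cleaves agrin, was at 1.55 and 0.486 FPKM (log2 ratio -1.67), and as it passed the filter only through the control level it could be called lower alone. The syntrophin gene Sntb1 was called higher, at 1.06 and 3.28 FPKM.

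The relatives of Dok7 were more abundant than Dok7 itself. Dok5, an adaptor of neurotrophin and insulin signalling, was at 16.4 FPKM in the control and 2.83 FPKM in the SMA MNs (log2 ratio -2.53). Dok2 was at 3.20 and 7.29 FPKM (log2 ratio 1.19). Dok1 (8.71 and 5.56 FPKM) and Dok4 (4.03 and 2.98 FPKM) were not past the limit, and Dok3 and Dok6 were under 1 FPKM in both genotypes.

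A list of 32 further genes of neuregulin and ErbB signalling had 27 above the filter, with 6 called lower and 5 higher and a median log2 ratio of -0.33, against background shares of 22.7% lower and 6.93% higher. Centred on the median gene, 3 were called lower and 8 higher, against 16.6% and 10.6%. The ETS factors Etv5 (19.9 and 85.2 FPKM, log2 ratio 2.10) and Etv4 (21.3 and 59.8 FPKM, log2 ratio 1.49), known targets and effectors of receptor tyrosine kinase signalling, were called higher. Gabpa, the ETS factor that binds the N-box, was at 54.5 and 90.1 FPKM (log2 ratio 0.73). The entry of the list with the highest FPKM (142 and 127 FPKM, status FAIL) holds Mvp, a vault protein, together with Kif22 and other genes. The level of Mvp alone is therefore unknown. The adaptor Grb2 was at 81.2 and 67.9 FPKM (status FAIL). Pik3r3, a regulatory subunit of the kinase PI3K that ErbB3 recruits, was at 31.1 and 9.07 FPKM (log2 ratio -1.78).

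Enzymes that release neuregulin from the membrane were also in this list. Bace2, a relative of the neuregulin protease BACE1, was at 1.40 and 0.230 FPKM (log2 ratio -2.60), and it too passed the filter only through the control level. Bace1, Adam10, Adam17 and Adam19 are outside the naming rule and were chosen after their values were seen. Bace1 (36.6 and 17.1 FPKM) and Adam10 (77.6 and 37.7 FPKM, status FAIL) were called lower. Adam19 was called higher, at 24.4 and 50.4 FPKM, and Adam17 was not past the limit, at 70.9 and 47.7 FPKM.

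The ligands of the EGF receptor were mostly low. Hbegf, the most abundant, was at 9.71 and 9.08 FPKM, Tgfa at 2.33 and 1.26 FPKM and Egf at 1.06 and 0.608 FPKM. Btc, Ereg, Areg and Epgn were all under 1 FPKM in both genotypes. None of these ligands was called.

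A further list held 29 genes of the synaptic basal lamina and of signals between muscle and nerve. Of its 22 genes above the filter, 9 were called lower and 0 higher in the SMA MNs, against 22.7% and 6.93% over the 15548 genes. Centred, 9 were called lower and 1 higher, against 16.6% and 10.6%. The median log2 ratio was -0.68, against -0.30. Cacna1b, the N-type calcium channel, was at 13.3 and 2.33 FPKM (log2 ratio -2.51), and Sirpa, a synaptic organizer, at 52.1 and 12.0 FPKM (log2 ratio -2.11). Ache, the acetylcholinesterase of the synaptic cleft, was at 19.7 and 4.87 FPKM in an entry shared with Ufsp1 (log2 ratio -2.02), and Col4a5 at 6.21 and 1.51 FPKM (log2 ratio -2.04). Col4a1, another collagen IV chain of basement membranes, went from 195 to 73.8 FPKM. The receptor phosphatase Ptprs (308 and 104 FPKM, status FAIL) was called lower, and Ptprf (169 and 95.1 FPKM, status FAIL) was not past the limit. Fgfr2, the receptor through which muscle FGFs act on motor axons, was at 158 and 262 FPKM in an entry shared with Ctbp2 (log2 ratio 0.73).

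**Figure D4:**
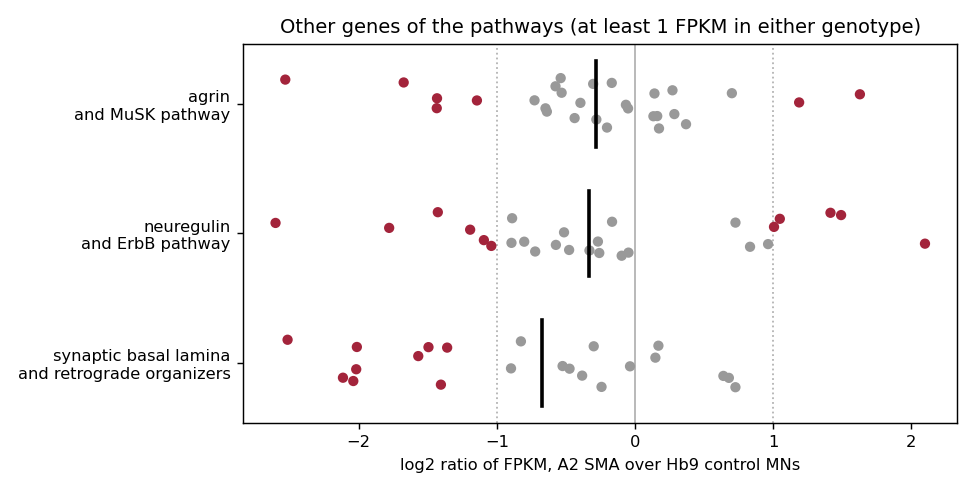
Log2 ratios of FPKM (A2 SMA over Hb9 control MNs) for the genes of the 3 wider lists with at least 1 FPKM in either genotype, 1 point per gene from pooled values, with vertical scatter only for legibility. Dotted lines mark 2-fold, red points lie past them and black bars are medians, at -0.28, -0.33 and -0.68 from top to bottom.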

How the data were processed

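RNA from sorted eGFP-positive MNs of 2 mESC lines (3 samples per genotype, TruSeq RNA kit, Illumina HiSeq) was sequenced by the authors. Reads were checked with FastQC 0.10.1, trimmed with CutAdapt and mapped to NCBI m37 with TopHat 2.04, using Ensembl annotation. The authors deposited 1 FPKM value per gene and genotype from Cufflinks and Cuffdiff, so library depth, counts and the spread of samples were not analysed here. Their fold change, test statistic, p, q and significance columns hold the authors' own comparison and were not used. The status column was read as a note on each entry, and in the main setting no entry was left out for its status.

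The software was Python 3.11.15 (numpy 2.4.6, pandas 2.3.3, matplotlib 3.10.9). For members, lists and named genes the gene column was split at commas. Where a symbol had more than 1 entry, that with the larger FPKM was kept. Background shares were counted over entries with a symbol. Log2 ratios had no pseudocount. A call required 1 FPKM in either genotype and a 2-fold difference. Start positions were raised by 1 to count from 1. The ratio and call steps were run on simulated FPKM pairs without noise, which checks their arithmetic only. Symbol splitting, choice among entries, list matching, promoters and neighbours were not checked in this way. Levels are pooled, so no test, interval or detection floor was computed.

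The members, the 3 wider lists, the 7 marker lists and the alternatives were chosen with earlier results of these data known. Genes named are the members, Smn1, Mnx1, the markers, and from each wider list at most the 4 with the highest FPKM and the 4 with the largest ratio, plus receptor, ligand and adaptor families in full. Promoters are from RefSeq (GRCm38.p6) and were joined by symbol, and no coordinate was converted between builds. Slc18a3, Acta1 and Sox1 could not be matched by symbol.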

Additional observations from a re-analysis of the deposited data

How the results depend on the processing

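No paired analysis was possible because the table has 1 pooled value per genotype, and for the same reason no replicate could be left out. Of 13 alternatives, the lower Erbb3 entry and the members at 1 FPKM in both genotypes were chosen after seeing the data. The scalings could turn no member's sign, since they moved every ratio by at most 0.30 and the negative ratio nearest 0 was -0.72 (Erbb2). Calls changed for Dok7 without the filter (-1.59, then called lower), for Rapsn (2.12) and Erbb4 (-4.07) with a filter of 5 FPKM, for Agrn and Erbb2 at 1.5-fold (then called lower) and for Lrp4 and Erbb3 at 4-fold (then not called).

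The median log2 ratio of the members was -0.68 with a pseudocount of 1 FPKM, -0.55 when centred on the median gene or scaled to the upper quartile, and -0.71 when centred on Gusb, Pgk1 and Rpl13a. At 1.5-fold 5 members were lower, and with a filter of 5 FPKM or at 4-fold 1 was higher. In the agrin and MuSK list, 1 gene was higher with a pseudocount of 1 FPKM or a filter of 5 FPKM, 8 were lower at 1.5-fold, and at 4-fold 1 was lower and 0 higher. In the neuregulin and ErbB list, 3 were lower and 8 higher when centred on the median gene or scaled to the upper quartile, 10 were lower and 8 higher at 1.5-fold, and 1 was lower and 1 higher at 4-fold. In the basal lamina list, 1 was higher without the filter or with either of these scalings, 3 were higher at 1.5-fold, and 5 were lower at 4-fold. Over all genes, 35.8% were lower and 12.8% higher at 1.5-fold, 9.04% and 1.85% at 4-fold, 20.2% and 4.79% with a filter of 5 FPKM, 17.5% and 4.43% with a pseudocount of 1 FPKM, and 24.8% and 8.52% without the filter. Filters and fold limits change only which genes pass, the scalings shift all ratios by the same amount, and a pseudocount shrinks low genes most (with 1 FPKM, Erbb4 to -1.44, Rapsn to 1.22 and Dok7 to -0.20, but Agrn only to -0.84), which leaves Nrg1 at -2.05 with the lowest ratio. With Erbb3 entries summed, no member changed its call (Erbb3 1.48).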

Other observations

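Neighbours of the 9 genes in the genome were read by position and are named here after their values were seen. The nearest named gene before Erbb3 is Pa2g4, which encodes an ErbB3-binding protein. It lies 1297 bp away, at 158 FPKM in control MNs and 227 FPKM in SMA MNs (log2 ratio 0.53). Grb7, an adaptor that binds ErbB2, lies 7347 bp from Erbb2 and was at 9.49 and 25.3 FPKM (log2 ratio 1.41, status FAIL), in the opposite direction to Erbb2. Lrpap1, which encodes a chaperone of the LRP receptor family, lies 3650 bp from Dok7 and was at 113 and 106 FPKM. Isg15, 1996 bp from Agrn, was at 1.20 and 0.708 FPKM.

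Fgf7, a muscle-derived organizer of presynaptic terminals, is outside the naming rule and was chosen after its value was seen. It was at 0.0377 FPKM in the control and 0.894 FPKM in the SMA MNs, under the filter of 1 FPKM. Col4a2, which shares a locus with Col4a1, was at 152 and 59.0 FPKM, and Lamb2, the beta chain of synaptic laminins, at 30.2 and 10.7 FPKM. Cacna1a, the P/Q-type calcium channel that mature motor terminals use, was at 7.06 and 11.3 FPKM (log2 ratio 0.68), while the N-type channel Cacna1b was lower. Tgfb2 was at 6.28 and 1.56 FPKM. These genes were chosen in the same way.

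Over the 2 genotypes, the symbols closest to Agrn in log2 FPKM among 15783 were Pafah1b2 and Sidt2, which share an entry at 198 and 111 FPKM, and Trp53bp1 at 196 and 114 FPKM. Those closest to Nrg1 were Adamts7 (18.5 and 3.78 FPKM), Il4ra (19.2 and 3.87 FPKM) and Vash2 (18.6 and 3.91 FPKM). Likeness over 2 pooled values is a description only.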
